A study of Mus musculus with 38 samples.

Results

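9 fetal liver and liver tumour marker genes were followed in the livers of mice given the hepatocarcinogen N-nitrosodiethylamine (DEN). They are H19, Igf2, Afp, Gpc3, Akr1c18, Tff3, Scd2, Anxa2 and Cd63, chosen by gene symbol from a list drawn up with earlier results of these data in view. All 9 were found, with 1 probe each, among 17501 named genes and 36607 probes. Because the levels were known when the list was made, the members' values are given as a description. Adjusted p-values, from limma with Benjamini-Hochberg adjustment over all probes, place each member among the other probes and are no independent evidence.

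The study asked what the loss of the hepatocyte growth factor receptor c-Met in hepatocytes does during chemical carcinogenesis. Each of the 4 groups held 5 male mice. The 3- and 5-month knockouts were Alb-Cre +/-; Met Fl/Fl on a strain labelled 129SV/C57BL6, and the 3- and 5-month controls were Alb-Cre +/- on a strain labelled B6129, so the strain labels differ as well as the Met alleles. The albumin promoter drives Cre in hepatocytes, and the other cells of the liver keep the gene. Both genotypes received 10 µg DEN per gram of body weight into the peritoneum at 14 days of age, and no group without DEN is part of the comparisons. Livers were labelled 12 weeks old in the 3-month groups and 20 weeks old in the 5-month groups, which is too young for 3 and 5 months after that dose, so the time since DEN is unsettled. Every liver was hybridised on 2-colour arrays against 1 pool of RNA from 5 wild-type male livers of strain B6129 aged 12 weeks.

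H19 is a long non-coding RNA transcribed from the maternal allele, and Igf2, its neighbour, is a growth factor expressed from the paternal allele. Both are abundant in fetal liver and nearly silent in the adult. Afp encodes alpha-fetoprotein, the main serum protein of the fetus, and Gpc3 a cell-surface heparan sulphate proteoglycan. Mouse liver shuts down Afp, H19 and Gpc3 after birth, in part through the zinc-finger repressors Zhx2 and Zbtb20, and liver tumours often express them again. The other members are genes that have been described as raised in liver tumours or lesions. Whole liver was measured, so a tumour or lesion that fills more of a sample and a higher level per cell cannot be told apart, and tumour burden is not part of the labels.

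All levels below are log2 ratios of liver over the reference pool, 1 value per mouse. The sources used here do not say which dye is the numerator, and Cy5 over Cy3 was taken as likely. That choice rested partly on H19 and Afp lying above the reference, so their position above it is no result, and if the ratio ran the other way, each "higher" would read "lower" for all 9 genes. The arrays fall into 4 runs of consecutive submitter array numbers, called A to D. Run A holds the 5 controls of 5 months and knockouts 1 and 2, and run B holds knockouts 3, 4 and 5 of 5 months and no control. Runs C and D hold the 3-month mice, with both genotypes in each. What a run stands for is not stated. Of the 20 mice, 18 have an array in both dye orientations. In the 5-month knockouts, mouse 2 was measured only with the liver in Cy3 and mouse 3 only with the liver in Cy5. Dye bias was larger at 3 months, where the probe-wise dye effect had an SD of 0.82, against 0.27 at 5 months. It cancels in the mean of a mouse with both orientations, so the values of 5-month knockouts 2 and 3 depend on its estimate. The arrays of a mouse also disagreed more at 3 months. Their root mean square deviation from the mean of the mouse had a median over probes of 0.27, against 0.19 at 5 months. Single 3-month values thus carry less weight.

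Promoters are shown for Akr1c18, Anxa2 and Cd63, 3 of the genes that were high in the same mice below, and for Afp, the classic fetal marker. RefSeq sequences (build GRCm38.p6, 250 bases before and 50 bases from the start) were at hand for 6 of the 9 members. Capitals mark GTTAAT, a half-site of the liver factor HNF1, TATAAA and CCAAT, each searched on both strands.
Afp, chr5:90490464-90490763, plus strand: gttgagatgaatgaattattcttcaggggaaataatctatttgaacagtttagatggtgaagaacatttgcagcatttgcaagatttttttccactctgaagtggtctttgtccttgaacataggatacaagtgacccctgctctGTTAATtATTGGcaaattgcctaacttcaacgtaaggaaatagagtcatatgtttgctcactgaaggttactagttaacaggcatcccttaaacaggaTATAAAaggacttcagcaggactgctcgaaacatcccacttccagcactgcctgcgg
Akr1c18, chr13:4150597-4150896, minus strand: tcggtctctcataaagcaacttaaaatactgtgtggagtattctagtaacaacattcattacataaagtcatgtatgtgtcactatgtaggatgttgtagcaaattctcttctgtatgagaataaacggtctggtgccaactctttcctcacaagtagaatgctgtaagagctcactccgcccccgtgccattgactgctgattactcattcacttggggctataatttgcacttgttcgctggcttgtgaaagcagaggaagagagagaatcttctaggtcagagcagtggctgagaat
Anxa2, chr9:69453433-69453732, plus strand: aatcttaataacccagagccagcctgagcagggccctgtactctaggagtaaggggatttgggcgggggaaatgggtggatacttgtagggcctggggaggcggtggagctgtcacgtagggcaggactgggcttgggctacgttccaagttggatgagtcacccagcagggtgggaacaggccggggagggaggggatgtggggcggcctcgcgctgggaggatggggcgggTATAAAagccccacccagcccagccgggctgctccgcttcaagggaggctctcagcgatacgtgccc
Cd63, chr10:128909095-128909394, plus strand: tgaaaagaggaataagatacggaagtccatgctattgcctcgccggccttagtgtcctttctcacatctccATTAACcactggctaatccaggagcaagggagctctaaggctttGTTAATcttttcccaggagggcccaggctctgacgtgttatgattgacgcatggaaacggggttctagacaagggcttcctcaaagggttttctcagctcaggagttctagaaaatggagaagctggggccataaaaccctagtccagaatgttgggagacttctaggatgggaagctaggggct
In Afp the letters GTTAAT and CCAAT (as its reverse, ATTGG) stand next to each other with 1 base between them, and a TATAAA lies close to the start. Anxa2 holds a single TATAAA, Cd63 holds 2 copies of GTTAAT, and Akr1c18 has none of these letters in its window. None of the matches in the 4 windows overlap. Among all 32851 promoter windows, 7.1% hold GTTAAT, 13.6% hold TATAAA and 37.4% hold CCAAT on either strand. The matches are letters in a window and were not tied to any measured binding.

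H19 was the most uneven of the members at 5 months. The 5-month knockouts 1 to 5 stood at -0.10, 0.17, 3.12, 3.15 and 2.23, and the 5-month controls 1 to 5 at 0.09, 1.33, 0.35, 0.60 and 0.26. Knockouts 3, 4 and 5, the mice of run B, lay far above every control. Knockouts 1 and 2, whose array numbers fall in the run of the controls, lay within or below the control range. The arrays of both orientations mirrored each other in the 2 run B mice that had both. As deposited, H19 read 2.53 with the liver in Cy5 and -3.77 with it in Cy3 in knockout 4, and 1.60 and -2.85 in knockout 5. At 3 months the knockouts stood at 0.02, 0.90, -0.13, 0.17 and -0.34 and the controls at -0.69, 0.36, -0.74, 0.54 and -0.19, and the groups overlapped.

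Igf2 did not share the pattern of its neighbour. It stood at -0.58, -0.29, -0.34, 0.10 and -0.39 in 5-month knockouts 1 to 5 and at -0.37, -0.54, -0.42, -0.73 and -0.51 in 5-month controls 1 to 5. Knockout 4 had the highest value, and the other run B mice lay among knockouts 1 and 2 and the controls. In 3-month livers it ran from -0.62 to -0.08 in knockouts and from -0.71 to 0.14 in controls. Of the 20 mice, 18 lay below the reference.

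Afp was higher in some 5-month knockouts than in others. It stood at 0.15, 0.47, 1.13, 2.51 and 0.50 in 5-month knockouts 1 to 5 and at 0.94, 0.93, 0.63, 0.96 and 0.50 in 5-month controls 1 to 5. Knockouts 3 and 4 of run B exceeded all controls, and knockouts 1, 2 and 5 lay below all 5 controls, knockout 5 by less than 0.01. In 3-month livers it ran from -0.28 to 0.59 in knockouts and from -0.64 to 0.61 in controls.

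Gpc3 gave no usable pattern, since the arrays of a mouse disagreed. It ran from -0.49 to 1.27 in 5-month knockouts and from -0.10 to 1.204 in 5-month controls, and from -1.53 to 0.64 in 3-month knockouts and from -2.50 to 2.55 in 3-month controls. The 3-month control with the highest value read 0.61 in one orientation and 4.50 in the other after the dye effect was subtracted. The deviation of an array from the mean of its mouse had a root mean square of 0.97 for Gpc3, larger than for 98.4% of all probes, and the SD between mice of a group was 1.09.

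Akr1c18, an aldo-keto reductase that inactivates progesterone, lay above the control mean in all 5-month knockouts. The 5-month knockouts 1 to 5 stood at 1.31, 0.84, 2.24, 3.15 and 1.98, and the 5-month controls 1 to 5 at 0.48, 0.90, 0.33, 0.66 and 0.51. The 3 mice of run B were highest, knockout 1 also exceeded every control, and knockout 2 lay just under the highest control. In 3-month livers it ran from 0.08 to 1.00 in knockouts and from -0.10 to 0.93 in controls.

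Scd2, a stearoyl-CoA desaturase that makes monounsaturated fatty acids and is the form typical of fetal rather than adult mouse liver, split the 5-month knockouts in the same way as H19. It stood at 0.38, 0.57, 2.10, 1.85 and 1.37 in 5-month knockouts 1 to 5 and at 0.37, 0.20, 0.10, 0.20 and 0.40 in 5-month controls 1 to 5. The run B mice were well above all the others, which spread little. At 3 months all 10 mice lay between -0.11 and 0.41.

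Anxa2, a calcium-dependent membrane-binding protein, and Cd63, a tetraspanin of late endosomes, showed the split with smaller steps. Anxa2 stood at 0.24, 0.04, 0.96, 1.19 and 0.92 in 5-month knockouts 1 to 5 and at 0.17, 0.35, -0.32, -0.21 and -0.09 in 5-month controls 1 to 5. The run B mice were highest at 5 months, but one 3-month knockout reached 1.27. Cd63 stood at 0.21, 0.04, 0.48, 0.85 and 0.44 in 5-month knockouts 1 to 5 and at 0.33, 0.08, 0.01, -0.06 and -0.07 in 5-month controls 1 to 5. Its 3 run B values exceeded those of all other mice, by a margin of less than 0.1 for the lowest of them.

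Tff3, a secreted trefoil factor of mucosal surfaces, differed more between times than between genotypes. It stood at 0.45, 0.28, 1.04, 1.73 and 0.79 in 5-month knockouts 1 to 5 and at 0.70, 0.97, 0.41, 0.26 and 0.60 in 5-month controls 1 to 5. Knockouts 3 and 4 were highest, and knockout 5 lay within the control range. At 3 months it ran from -1.02 to 0.29 in knockouts and from -1.49 to -0.18 in controls.

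**Figure D1:**
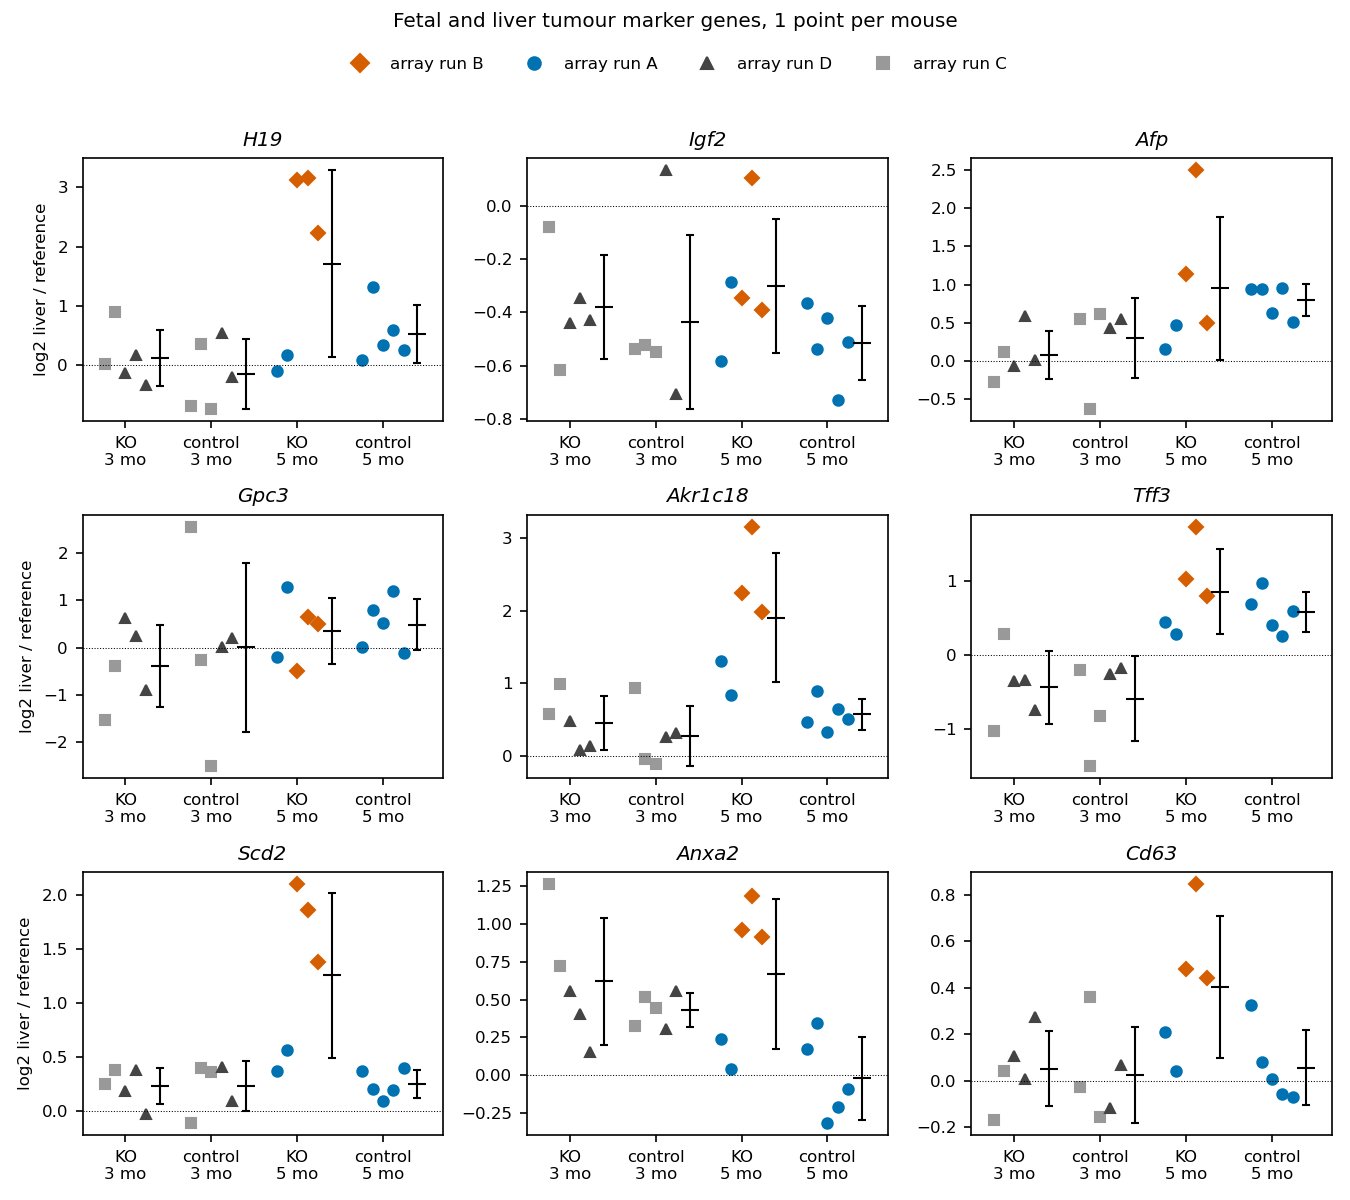
Log2 ratio of liver over reference (vertical axis, own scale in each panel) for each of the 9 genes, 1 point per mouse, in knockouts and controls at 3 and 5 months, with the group mean and SD (n = 5) at the right of each group. The marker gives the array run, and the 3 orange diamonds of run B stand above all other mice for H19, Akr1c18, Scd2 and Cd63, but not for Igf2 or Gpc3.

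**Figure D2:**
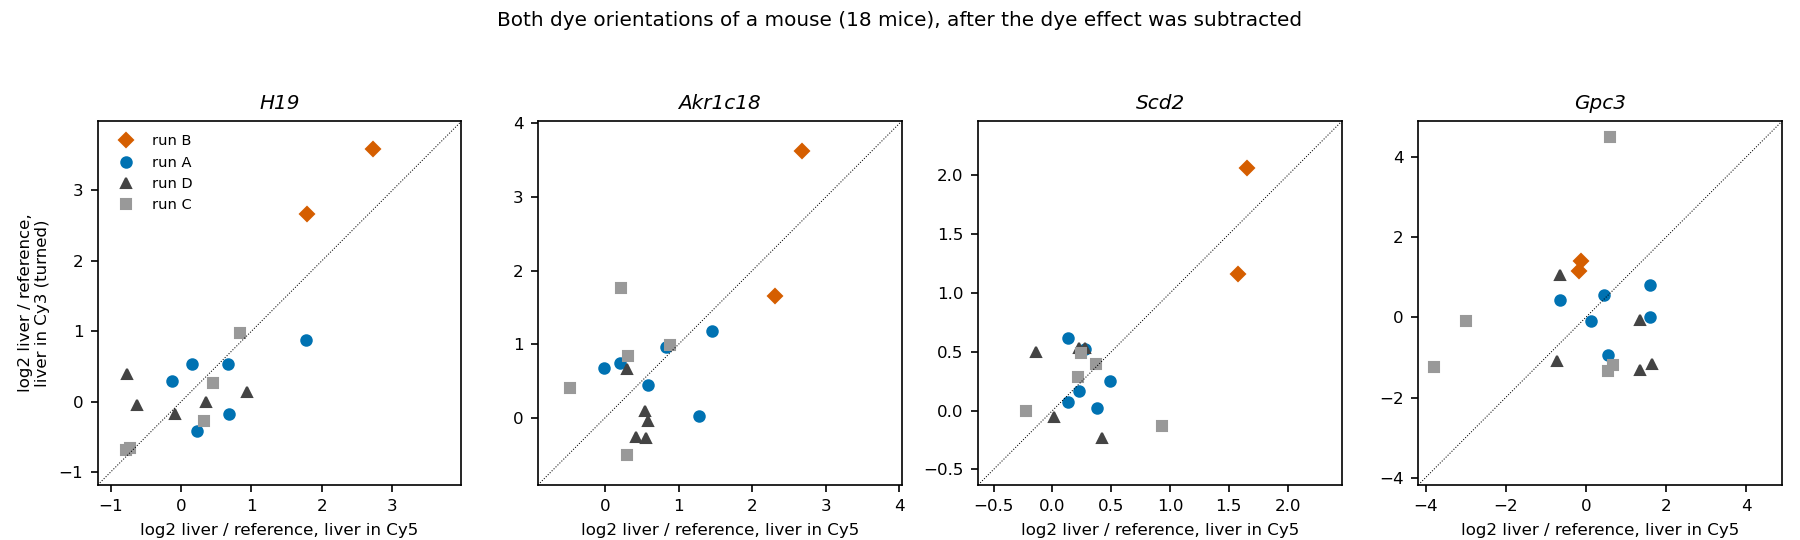
Values of the 18 mice with both orientations, with the liver in Cy5 (horizontal axis) and in Cy3 after turning (vertical axis), as log2 liver over reference after the dye effect was subtracted, with the line of equality dotted. The 2 mice of run B were high in both orientations for H19, Akr1c18 and Scd2, whereas the points of Gpc3 scatter, with one mouse at 0.61 and 4.50.

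In the comparison of knockouts with controls at 5 months, none of the 9 members passed an adjusted p of 0.05, and 8 of 9 had a positive difference. The median difference of the members was 0.35 and that of all probes 0.01. Akr1c18 averaged 1.90 ± 0.89 in knockouts and 0.57 ± 0.21 in controls (SD, n = 5), a difference of 1.33 ± 0.32 (SE, limma, adjusted p = 0.115) with 5 of 5 knockouts above the control mean. Scd2 averaged 1.25 ± 0.76 in knockouts and 0.25 ± 0.13 in controls, a difference of 1.00 ± 0.25 (limma, adjusted p = 0.135), also with 5 of 5 knockouts above. For Anxa2 the difference was 0.69 ± 0.22 (limma, adjusted p = 0.279), for H19 1.19 ± 0.53 (0.435) and for Cd63 0.35 ± 0.15 (0.411). Tff3, Igf2, Afp and Gpc3 gave 0.27, 0.21, 0.16 and -0.14, each with a 95% interval that spans 0. Over all probes limma called 41, or 0.112%, so few probes of any kind passed. Without knockout 1, Scd2 reached 1.22 and passed (limma, adjusted p = 0.0462), with 37 of all probes called. Without knockout 2, Akr1c18 reached 1.60 and passed (limma, adjusted p = 0.0408), with 47 called. Both of these mice are of run A, the run of the controls. Over all alternatives given at the end, adjusted p (limma, or the methods' t-test) reached 0.982 for Scd2 and 0.893 for Akr1c18.

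The difference depended on the run. Within run A, which sets knockouts 1 and 2 against the 5 controls, H19 was -0.49 ± 0.38, Afp -0.48 ± 0.41, Tff3 -0.22 ± 0.35 and Gpc3 0.05 ± 0.88, all opposite in sign to the difference over 5 knockouts. In the same mice Akr1c18 was 0.50 ± 0.30, Scd2 0.22 ± 0.20, Anxa2 0.16 ± 0.20 and Cd63 0.07 ± 0.17, all smaller than over 5 knockouts. With run as a covariate the values are the same, since run B has no control. Whether run B mice differ by liver or by hybridisation cannot be told apart.

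The contrast of run B with the rest was noticed in the values and is therefore given as sizes and ranks, with no test. The SEs come from limma with 1 mean per group and run, so the gap between run A and run B knockouts is not part of their spread. Against the 5-month controls, H19 was 2.31 ± 0.33 higher in run B knockouts (means of 3 and 5 mice), a 4.96-fold difference and the largest increase of all 36607 probes. Akr1c18 followed with 1.88 ± 0.27 (rank 5), Scd2 with 1.52 ± 0.17 (rank 16), Anxa2 with 1.04 ± 0.17 (rank 134) and Cd63 with 0.53 ± 0.15 (rank 1263). Tff3 was 0.60 ± 0.31, Afp 0.59 ± 0.36, Igf2 0.30 ± 0.18 and Gpc3 -0.27 ± 0.77. Against knockouts 1 and 2 of the same genotype and time, run B mice were higher by 2.80 ± 0.41 for H19 (rank 1), 1.38 ± 0.33 for Akr1c18, 1.30 ± 0.22 for Scd2, 1.07 ± 0.45 for Afp, 0.88 ± 0.22 for Anxa2, 0.82 ± 0.38 for Tff3, 0.46 ± 0.19 for Cd63 and 0.23 ± 0.23 for Igf2, and the difference for Gpc3 was -0.32 ± 0.96. All 3 run B knockouts exceeded the other 7 mice of 5 months for 5 of the 9 members (H19, Akr1c18, Scd2, Anxa2 and Cd63), while 2.63% of all probes did. They exceeded all other 17 mice for H19, Akr1c18, Scd2 and Cd63, while 0.175% of all probes, or 64, did. Since the list was drawn up with these values known, these shares describe the members and test nothing.

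**Figure D3:**
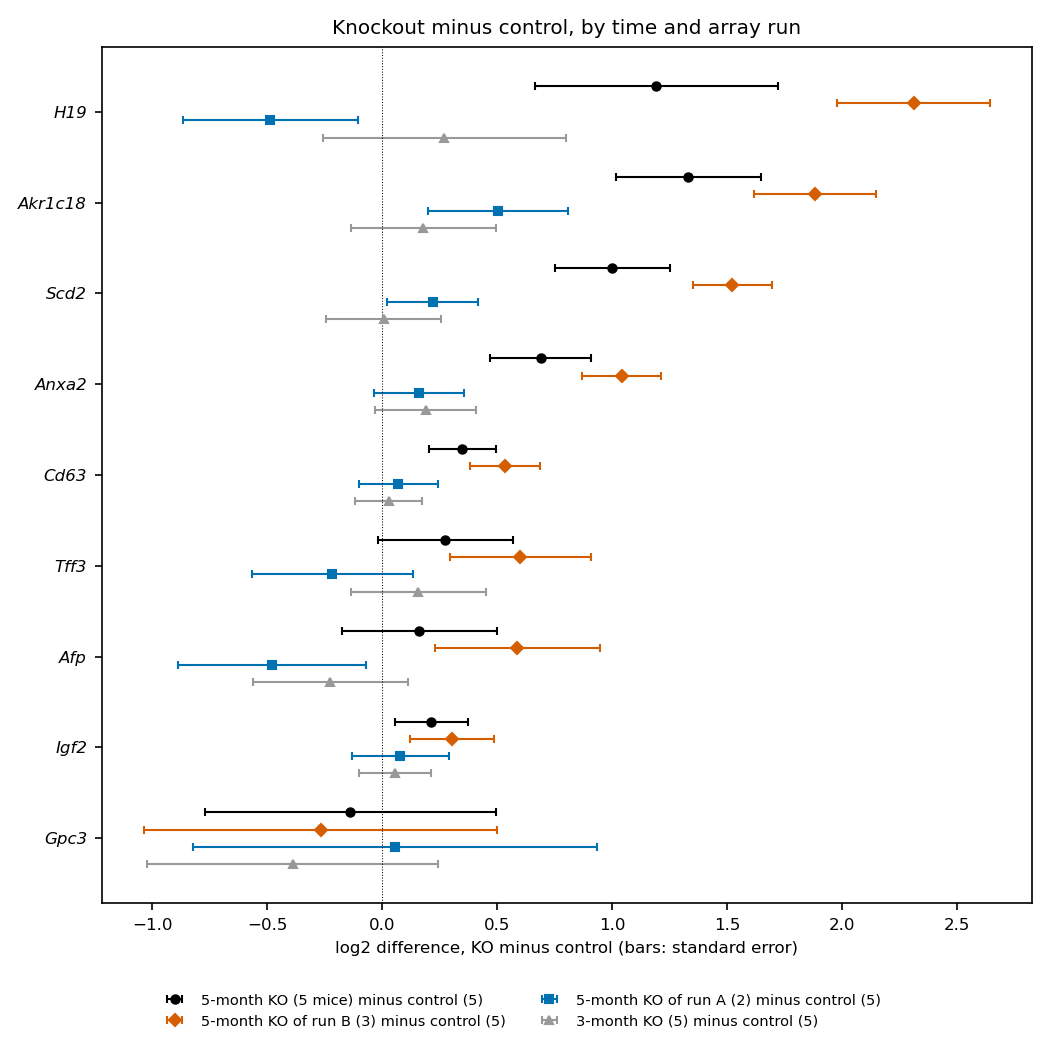
Log2 difference of knockouts minus controls with its standard error, for all 5 knockouts of 5 months, the 3 of run B, the 2 of run A and the 5 of 3 months, each against the 5 controls of its time. H19 lies at 2.31 for run B and at -0.49 for run A, and Gpc3 and Igf2 show no such split.

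At 3 months the knockouts did not stand apart. None of the 9 members passed, differences ran from -0.39 for Gpc3 to 0.27 for H19, and adjusted p (limma) from 0.890 to 0.998, with 26 of all probes called, or 0.071%. The interval of the difference was -0.52 to 0.53 for Scd2 and -0.83 to 1.37 for H19, so differences of the size seen at 5 months could be missed for H19. The sign differed between runs C and D for 7 of the 9 members. Within run C, H19 was 0.82 ± 0.41 and Anxa2 0.56 ± 0.22, and within run D they were -0.27 ± 0.41 and -0.06 ± 0.22.

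The interaction, which asks whether the genotype difference itself changed with time, was called for no probe by limma (0%), although 2949 probes had an unadjusted p under 0.05. Among the members Akr1c18 had 1.15 ± 0.45 (adjusted p = 0.537) and Scd2 1.00 ± 0.35 (limma, adjusted p = 0.492), the 2 with the smallest p. Neither difference thus passed as larger at 5 than at 3 months.

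Between times, 3 of the 9 members passed in knockouts, all higher at 5 months. Akr1c18 averaged 1.90 at 5 months and 0.45 at 3 months in knockouts, a difference of 1.45 ± 0.32 (limma, adjusted p = 0.0178). Tff3 differed by 1.29 ± 0.29 (0.0203) and Scd2 by 1.02 ± 0.25 (0.0254), while H19 at 1.59 ± 0.53 (0.0706) and Afp at 0.88 ± 0.34 (0.107) did not pass. In controls 1 member passed. Tff3 averaged 0.59 at 5 months and -0.59 at 3 months, a difference of 1.17 ± 0.29 (limma, adjusted p = 0.0140), with all 5 controls of 5 months above all 5 of 3 months. Background was high, with 6.28% of all probes called in knockouts and 15.3% in controls, and the median of all probes lay 0.14 and 0.13 higher at 5 months. Time and array run cannot be told apart, since no run holds both times. No member passed in knockouts without the 3 run B mice, where 612 of all probes did. The same held without the 2 mice that have 1 array, where 13 probes passed. With the liver in Cy3 alone no member passed in either genotype, beside 5 probes in knockouts and 5699 in controls.

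The spread between mice was itself uneven over the members. The SD between mice of a group, pooled over the 4 groups, was 1.09 for Gpc3, 0.91 for H19, 0.57 for Afp, 0.53 for Akr1c18, 0.49 for Tff3, 0.41 for Scd2, 0.36 for Anxa2, 0.24 for Igf2 and 0.22 for Cd63, beside a median of 0.31 over all probes. For H19 the spread was 3 times that between the arrays of a mouse (root mean square deviation from their mean 0.30), and for Gpc3 and Afp it was close to it (0.97 and 0.54). Within the 5-month knockouts H19 had an SD of 1.58, larger than for 99.7% of probes, Afp 0.94 (97.5%), Akr1c18 0.89 (96.9%) and Scd2 0.76 (95.02%). In the 5-month controls the SD was 0.49 for H19, 0.21 for Afp and Akr1c18 and 0.13 for Scd2.

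**Figure D4:**
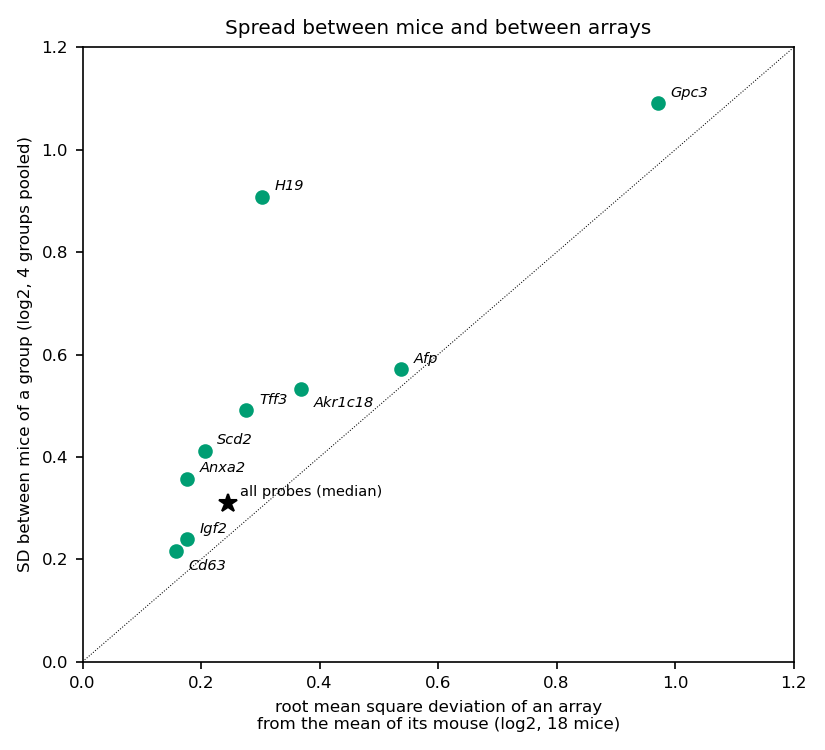
SD between mice of a group (vertical axis) against the root mean square deviation of an array from the mean of its mouse (horizontal axis), in log2 units, for the 9 genes and for the median over all probes, with the line of equality dotted. H19 lies far above the line at 0.91 against 0.30, and Gpc3 and Afp lie near it.

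Because the run B mice form a separate cluster for H19, correlations between members were taken over the other 17 mice, as deviations from the group means. None of the 36 pairs passed adjustment. The closest pairs were Akr1c18 with Tff3 (Pearson's r = 0.60, permutation p = 0.0453, adjusted p = 0.877; Spearman's rho = 0.50, permutation p = 0.0808, adjusted p = 0.838) and Afp with Tff3 (r = 0.62, permutation p = 0.0490, adjusted p = 0.877; rho = 0.43, permutation p = 0.132, adjusted p = 0.838). Without the 2 mice farthest from the median of the first gene, r was 0.40 and 0.16, so the second relation rested on those mice. H19 with Scd2 had r = 0.43 (permutation p = 0.151, adjusted p = 0.877), rho = 0.44 (permutation p = 0.130, adjusted p = 0.838) and r = 0.49 without the 2 farthest.

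The named genes whose deviations from the group means over all 20 mice were most like those of H19 were Scd2 (r = 0.87), Tjp3, a tight junction protein (0.82), Insig2, which retains sterol-sensing proteins in the endoplasmic reticulum (0.81), Elovl3, a fatty acid elongase (0.79), and Rnf125, a ubiquitin ligase (0.78). Over the 17 mice outside run B the values were lower, at 0.43, 0.25, 0.31, 0.45 and 0.30. For Afp they were Msantd4 (0.78), Ly6f (0.77), Tff3 (0.75), Nlrc4, a component of the inflammasome (0.74), and Fam149a (0.74), and over the 17 mice 0.53, 0.52, 0.62, 0.90 and 0.42.

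Regulators of Afp and H19 and genes taken as repressed after birth were read as 1 list of 12 measured genes. Being on the list does not mean that a gene is repressed together with Afp or H19. None of the 12 genes was called for genotype, at either time. Zhx2 was 0.05 ± 0.17 and Zbtb20 0.01 ± 0.19 higher in run B knockouts than in 5-month controls, each less than its SE, and a further probe of Zbtb20 gave 0.24. Lpl, the lipoprotein lipase, averaged 0.37 in run B, -1.17 in knockouts 1 and 2 and -1.10 in 5-month controls, and Elovl3 averaged 1.12, -0.39 and -0.14. In the 3 run B mice these 2 of the 12 genes were above all other 5-month mice, while 2.63% of all probes were. Neither was above all other 17 mice, the highest of which stood at 0.23 for Lpl and 2.755 for Elovl3. A further probe of Lpl gave 1.45 for run B minus controls, beside 1.47 for the first. The largest genotype differences were Lin28b, an inhibitor of let-7 maturation (1.25 ± 0.72 at 5 months and -1.03 ± 0.72 at 3 months), Lpl (0.85 ± 0.31 at 5 months) and Elovl3 (0.71 ± 0.33 at 3 months), with adjusted p (limma) from 0.340 to 0.580 at 5 months and from 0.573 to 0.771 at 3 months. Between times Elovl3 fell by 1.57 in knockouts (adjusted p = 0.0155) and fell by 1.51 in controls (0.00722), Igf2bp1 rose by 0.61 in knockouts (0.0443) and Foxm1, a cell cycle transcription factor, by 0.73 in controls (0.0180, with a further probe at 0.04), all by limma. In each genotype 1 of the 12 genes rose and 1 fell, beside 6.28% of all probes called in knockouts and 15.3% in controls.

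The imprinted genes, 17 measured, held no genotype call at either time. The largest differences were Ascl2 (-1.80 ± 0.36, limma, adjusted p = 0.0719, with a further probe at 0.11) and Grb10 (-0.57, with a further probe at -0.10) at 3 months, and Kcnq1 (-0.62, with 4 further probes on the other side of 0, at 0.0051 to 0.29) and Dcn (0.55 ± 0.11, limma, adjusted p = 0.0506, with 3 further probes at 0.54 to 0.72) at 5 months. None of the 17 was above all other 5-month mice in run B, while 2.63% of all probes were. The median of the list in run B minus controls was 0.13. Between times Ascl2 rose by 1.58 in knockouts (limma, adjusted p = 0.0211), and in controls Peg3 rose by 0.98 (0.00921, with a further probe at 0.27) and Dcn fell by 0.52 (0.00552). These calls stand beside 6.28% of all probes in knockouts and 15.3% in controls.

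Of 13 IGF axis genes, 1 was called higher and none lower in 3-month knockouts, beside 0.071% of all probes called. It was Igfbp1, a secreted IGF-binding protein that insulin represses, which rose by 1.36 ± 0.22 (limma, adjusted p = 0.0442). The call lay close to the threshold and was lost in 17 of 34 alternatives fitted with limma, among them the 3-month mice alone (adjusted p = 0.239), quantile normalisation (0.127), the fit without 3-month knockout 1 (0.105) and the fit without 3-month control 3 (0.0828), while the difference stayed between 1.07 and 1.57. At 5 months it was 0.98 ± 0.22 (0.0973), and Igfbp7 0.70 ± 0.18 (0.139, with a further probe at 0.58). Igfbp5, the next largest at 3 months, was at 0.40 ± 0.34, with a further probe at 0.09. In the time comparison Insr, the insulin receptor, rose by 0.51 in knockouts (limma, adjusted p = 0.0407), and Irs1 fell by 0.75 (0.00109) and Igfbp7 fell by 0.99 (0.00217) in controls. A further probe of Irs1 gave 0.65 in controls, on the other side of 0, and one of Igfbp7 -0.69. Of all probes, 6.28% passed between times in knockouts and 15.3% in controls.

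Of 42 measured genes from a list of other liver tumour markers, none was called for genotype. The largest differences were S100a6 (-0.68 ± 0.21) and Ugt2b37 (-0.67 ± 0.22) at 3 months and Lcn2 (-1.83 ± 0.84) and Gsta1 (0.68 ± 0.25) at 5 months. The tetraspanin Cd9, the annexin partner S100a10 and the carboxypeptidase Cpe were above all other 5-month mice in run B. Over controls they were higher by 0.80, 0.64 and 0.45 on average, and the median of the list was 0.07. These are 3 of 42 genes, beside 2.63% of all probes. None of them was above all other 17 mice, the highest of which stood at 0.51 for Cd9, 1.46 for S100a10 and 1.41 for Cpe. Scd1, the adult liver form of stearoyl-CoA desaturase, differed by -0.13 ± 0.28 between knockouts and controls at 5 months, where Scd2 differed by 1.00 ± 0.25. Between times, 1 of the 42 rose and 1 fell in knockouts, beside 6.28% of all probes, and 2 rose and 5 fell in controls, beside 15.3%. S100a10 fell by 0.72 in knockouts and fell by 1.34 in controls, and Gpc6, a relative of Gpc3, rose by 1.11 in both (limma, adjusted p from 0.000773 to 0.0377 for these 4 values), with a further probe of Gpc6 at 0.49 in knockouts and 0.30 in controls. In controls alone Scd4 also passed, at 0.58, and so did the glutathione transferases Gstp1 and Gsta1, at -1.25 and -1.08, Akr1c6, an aldo-keto reductase related to Akr1c18, at -0.998, and the glycolytic enzyme Aldoa, at -0.37.

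The 20 measured proliferation genes held no genotype call, and none stood above all other 5-month mice in run B, while 2.63% of all probes did. Plk1 (0.74 ± 0.18, limma, adjusted p = 0.117, with a further probe at 0.43) and Birc5 (0.42 ± 0.12, 0.224, with further probes at 0.39 and 0.23) had the largest differences at 5 months, and Ccnd1 (0.73 ± 0.22, 0.273, with 3 further probes at -0.11 to 0.20) and Top2a (-0.70 ± 0.57, 0.810) at 3 months. Mki67 averaged 0.67 in run B, 1.07 in knockouts 1 and 2 and 0.75 in 5-month controls. Between times, Ccna2 rose by 0.91 and Bub1 by 0.68 and Aurkb fell by 0.59 in knockouts (limma, adjusted p from 0.0355 to 0.0493), and Ccnd1 rose by 0.85 and Pcna fell by 0.50 in controls (0.0177 and 0.0349). Over all probes 6.28% passed in knockouts and 15.3% in controls. The 3 further probes of Ccnd1 gave -0.19, -0.19 and 0.06 in controls.

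Markers of other liver cells were read beside the members. The mean level of 11 Kupffer cell and macrophage markers ran from 0.24 to 0.49 in run B. Knockouts 1 and 2 lay at 0.02 to 0.10, and 5-month controls at -0.44 to 0.05. At 3 months this mean ran from -0.44 to 0.43 in knockouts and from 0.05 to 0.51 in controls. In run B, 6 of the 11 (Clec4f, Cd5l, Adgre1, C1qb, C1qc and Ctss) were above all other 5-month mice, while 2.63% of all probes were. None of the 11 was above all other 17 mice. The median of the list in run B minus 5-month controls was 0.71. Marco was at -0.19, the first probe of Lyz2 at -0.56 with its other 3 at 0.29 to 0.63, and Adgre1 at 1.28 with a further probe at 0.22. The mean of 8 neutrophil markers ran from -0.70 to -0.41 in run B, from -0.23 to -0.01 in knockouts 1 and 2 and from -0.31 to 0.60 in controls. In 3-month livers it ran from -0.90 to -0.61 in knockouts and from -0.81 to -0.28 in controls. The 12 hepatocyte markers ran from -0.16 to -0.02 in run B, from 0.14 to 0.30 in knockouts 1 and 2 and from -0.44 to 0.23 in controls, close to the liver reference. The 8 biliary and progenitor markers ran from -0.21 to 0.02, from 0.06 to 0.06 and from -0.13 to 0.12. The 10 endothelial markers ran from -0.03 to 0.10 in run B, from -0.01 to 0.02 in knockouts 1 and 2 and from -0.41 to -0.16 in controls. In 3-month livers they ran from -0.12 to 0.09 in knockouts and from -0.03 to 0.09 in controls. Stellate cell, lymphocyte and erythroid markers overlapped between run B and the controls. No marker of the 8 cell lists was called for genotype at either time. Between times, 4 markers of the 8 lists passed in knockouts (limma), where 6.28% of all probes did, all higher at 5 months, namely Cyp7a1 of the hepatocyte list, S100a8 of the neutrophil list, Gzma of the lymphocyte list and Lyz2 of the Kupffer cell list. For Lyz2 the difference was 2.47 with the first probe, but -0.16, 0.13 and 0.15 with the other 3. In controls, where 15.3% of all probes passed, 4 of 11 Kupffer cell markers (Ctss, C1qc, Adgre1 and Clec4f), 3 of 10 endothelial markers (Fcgr2b, Clec4g and Kdr), 3 of 12 hepatocyte markers (Ttr, Cps1 and Tdo2), 1 of 11 stellate cell markers (Dcn) and 1 of 6 erythroid markers (Hba-a1) fell, the hepatocyte marker Cyp7a1 and 1 of 8 biliary markers (Cftr) rose, and no lymphocyte or neutrophil marker passed. A further probe of Fcgr2b gave 0.26 and one of Adgre1 -0.29 in controls. The part of these cell markers in the members' values was not tested.

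Met itself was measured by 1 probe whose position against the deleted part is not given in the sources used here, so it checks nothing about the genotype labels. At 5 months it averaged -0.78 ± 0.49 in knockouts, against -0.73 ± 0.30 in controls (SD, n = 5 each). At 3 months it averaged -0.39 ± 0.38 in knockouts, against -0.81 ± 0.18 in controls.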

How the data were processed

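Liver RNA of 20 mice was measured on 38 arrays, in 4 groups of 5. Values are log2 ratios of both dyes that the authors deposited after leaving out invalid features and normalising each array to the 50th percentile of its median signal in the mAdb suite, per the labels' design text. Base 2 was read from the steps between low values. Signal behind a ratio is not in the values, so dim probes could not be filtered and the number of arrays limits precision. Of the probes, 26926 carry 1 gene symbol, 203 several and 9478 none.

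Arrays with the liver in Cy3 changed sign so that all read liver over reference. A dye effect per probe, estimated from mice of the same age, was then removed, and 1 mean per mouse was taken. Mice were compared over all probes with limma 3.58.1 in R 4.3.3 (4 groups, 1 shared spread, Benjamini-Hochberg, threshold 0.05). Nothing says whether mice of a group were handled independently beyond being separate animals. On simulated data for the 5-month comparison, over 36607 probes, 58 of 100 probes changed by 1 log2 unit and 94 of 100 changed by 2 were recovered, with 4 false calls. The changed probes were drawn at random, with independent normal noise of the same SD in all groups. A split of the 5-month knockouts by run was not simulated, so these rates do not carry over to the members. Correlations used 100000 permutations within groups. The members, lists and tests were chosen with earlier results of these data known. Named genes are all 9 members, Met, per list the genes called in a comparison (at most 8) or the 2 with the largest genotype difference at each time, and the 5 genes most like H19 and Afp. Zhx2, Zbtb20, Scd1, Mki67, Marco and the genes above other mice in run B were named after their values were seen. Same-numbered mice correlated at r = -0.07 to 0.11 at 3 months and -0.28 to 0.10 at 5 months, so the numbers do not pair mice. Alternatives were other centring, quantile normalisation, dye handling, single orientations, run as a covariate, the methods' t-test and mice left out.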

Additional observations from a re-analysis of the deposited data

Results flagged for a closer look

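Among 36 groups of 5 values (9 genes in 4 groups), 2 held a mouse far from the others by Dixon's criterion, where chance gives about 1 in 20. Igf2 in 3-month control 4 was at 0.14, with the nearest of its group at -0.52. Afp in 3-month control 2 was at -0.64, with the nearest at 0.43, and the arrays of that mouse disagreed most for Afp, each 1.35 from their mean.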

How the results depend on the processing

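In the genotype comparisons of single members, 299 of 324 alternative values at 3 months and 297 of 315 at 5 months kept direction and side of the threshold. These counts are no measure of robustness. Another test, or leaving out mice of the other time, cannot move a difference, so the direction of many of these values was fixed in advance. The cause of the changes below was not tested.

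At 5 months, run as a covariate, run A alone and leaving out the run B knockouts gave -0.49 for H19, -0.48 for Afp, -0.22 for Tff3 and 0.054 for Gpc3, and liver in Cy3 alone 0.38 for Gpc3. With 1 mouse left out the range was -0.23 to 0.36 for Afp, -0.37 to 0.069 for Gpc3, 1.02 to 1.60 for Akr1c18 and 0.79 to 1.22 for Scd2, and 0 to 1 members were called. Over all alternatives the adjusted p (limma, or the methods' t-test) ran from 0.0408 to 0.893 for Akr1c18 and from 0.0462 to 0.982 for Scd2.

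At 3 months, run D alone gave -0.27 for H19, -0.12 for Igf2, -0.059 for Akr1c18, -0.26 for Tff3, -0.069 for Scd2 and -0.063 for Anxa2, and run C alone -0.12 for Cd63. Liver in Cy5 alone gave -0.24 for Igf2, 0.39 for Afp, 0.33 for Gpc3, -0.0064 for Akr1c18 and -0.19 for Scd2, and liver in Cy3 alone -0.26 for Cd63. With 1 mouse left out the range was -0.021 to 0.20 for Igf2, -0.070 to 0.30 for Tff3, -0.079 to 0.070 for Scd2, -0.029 to 0.11 for Cd63 and -1.02 to 0.25 for Gpc3.

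Between times, liver in Cy5 alone called 5 members in knockouts and 4 in controls, beside 10207 and 17546 of all 36607 probes. Liver in Cy3 alone called 0 and 0 members, beside 5 and 5699 probes. In knockouts the methods' t-test called 0 members, beside 8 probes adjusted and 517 unadjusted. Members called in knockouts were 0 without the 2 mice with 1 array (13 probes) and 0 without the run B knockouts (612 probes). With 1 mouse left out they were 2 to 4, where H19 joined without 5-month knockout 1 and Scd2 was lost without 5-month knockout 4. Scd2 was also lost with arrays centred on their median. In controls the t-test called 0 members unadjusted, beside 1192 probes, and 1 (Tff3) adjusted, beside 2519 probes.

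Levels of 3-month mice depended on the dye. With liver in Cy5 alone knockouts and controls averaged -0.88 and -0.88 for Akr1c18, -0.46 and -0.85 for Afp, -1.63 and -1.96 for Gpc3 and -0.27 and -0.08 for Scd2, and with liver in Cy3 alone 1.79 and 1.43, 0.61 and 1.45, 0.85 and 1.97, and 0.74 and 0.54. H19 in 3-month knockouts averaged -0.37 with liver in Cy5 alone and 0.63 with liver in Cy3 alone. In the same order, Cd63 in 3-month controls averaged -0.32 and 0.37, and Akr1c18 in 5-month controls 0.22 and 0.93.

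The methods' t-test called 63 probes at 3 months and 211 at 5 months at its own threshold, 0 and 1 after adjustment, and no member. Probes called over the whole array ran from 0 to 76 at 3 months (26 here) and from 0 to 216 at 5 months (41 here). With the replicate block, 4 probes were called at 3 months and 13 at 5 months, and no member, as without it. Each member has 1 probe, so averaging probes changes nothing. No pair of members passed with centred arrays either.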
